A study of Mus musculus with 4 samples.

Results

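Voltage-gated sodium and calcium channels were followed here as a family, gene by gene, in single nuclei of the arcuate nucleus (ARC) of the mouse hypothalamus. Members were chosen by name: genes whose symbol is *Scn* plus a number and a or b (sodium channel alpha and beta subunits), or *Cacna1*, *Cacna2d*, *Cacnb* or *Cacng* plus a number or letter (calcium channel subunits), provided that UMIs (unique molecular identifiers, here 1 count per captured transcript) were seen in at least 20 barcodes over the 4 libraries. Of the 31053 annotated genes 40 had such a symbol and 39 passed, the exception being *Scn4a*, the skeletal muscle sodium channel, with UMIs in 5 barcodes. The 39 comprise 8 sodium channel alpha subunits, the related *Scn7a*, 4 sodium channel beta subunits, 7 high-voltage-activated and 3 low-voltage-activated (T-type) calcium channel alpha subunits, 4 alpha2delta, 4 calcium channel beta and 8 gamma subunits.

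All nuclei came from wildtype C57BL/6J male mice that were 10 weeks old at collection. The DOCA-salt group had carried a subcutaneous pellet of deoxycorticosterone acetate (DOCA, a mineralocorticoid) for 3 weeks and was offered saline to drink beside water. The Sham group had sham surgery and water. Each group has 2 libraries and each library is a pool of nuclei from bilateral ARC punches of 2 mice, so the pool is the replicate and single mice cannot be told apart. In every list of 4 values below the order is DOCA-salt 1, DOCA-salt 2, Sham 1, Sham 2.

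Sodium channels open on depolarization and carry the upstroke of the action potential. Their alpha subunit forms the pore, while beta subunits set its gating and its place in the membrane. Calcium channels turn depolarization into calcium entry: the alpha1 subunit is the pore, the beta and alpha2delta subunits bring it to the membrane and tune it, and most gamma subunits are better known as TARPs, partners that carry AMPA-type glutamate receptors to synapses. In ARC neurons, which sense hormones and nutrients and set hunger and energy expenditure, these channels shape firing and release of peptides.

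The 4 libraries held 41649 barcodes, of which 39176 passed the limits on genes, UMIs and mitochondrial share, and the median depth of these nuclei was 2401, 2534, 8215 and 3278 UMIs. Nuclei were sorted into classes on marker genes that are no members of the channel family, which gave 6571, 11966, 1718 and 4953 neurons. Astrocytes numbered 1259 over the 4 libraries, oligodendrocytes 1201, oligodendrocyte precursors 350, microglia 278 and endothelial cells 235. Every marker list was highest in its own class, with no marker at 0 in these 6 classes. The gates used these same lists, so this is no separate check of the classes. The libraries did not hold the same neurons. The gate for *Agrp*, the hunger-promoting peptide of the ARC, took 179, 0, 6 and 33 neurons and that for *Pomc*, the precursor of the satiety peptide alpha-MSH, took 171, 15, 22 and 169. Neurons with several genes typical of striatal projection neurons numbered 715, 19, 0 and 3, and neurons with high *Pmch*, the melanin-concentrating hormone (MCH) gene of the lateral hypothalamus, numbered 1, 383, 3 and 4. Pairs of libraries shared 5 to 49 barcode sequences, none with equal counts.

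Levels are given as CPM, the UMIs of a gene per 1000000 UMIs of all nuclei of that class in that library, and they compare a gene with itself in another class or library only. A contrast is called at an adjusted p under 0.05 by edgeR's quasi-likelihood test with Benjamini-Hochberg adjustment over all genes tested. Changes are log2 fold changes ± SE, fitted over the 4 libraries unless another number is given. This SE is the size of the change divided by the root of the test's F statistic. It draws on the spread of all genes tested, so it can be smaller than the spread of a gene's own library values. Neuronal transcripts were present in nuclei of every class: the summed level of the 7 neuronal markers in astrocytes was 30.6 to 41.9% of that in neurons, in oligodendrocytes 30.9 to 46.7%, in precursors 30.9 to 53.1%, in microglia 37.8 to 69.0% and in endothelial cells 37.6 to 46.0%. The same percentage is given below for channel genes, beside that of these markers. The markers also set the gates: neurons were picked for them, and other nuclei had to hold fewer of them than of their own. Their percentage is therefore not a neutral level of neuronal transcripts in a class.

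The first comparison asked which channel genes separate neurons from the other classes. Of the 39 members 23 had enough UMIs in the 6 classes to be tested, and 21 of these were higher in neurons than in the mean of the other 5 classes, beside 28.1% of the 7024 genes tested (edgeR quasi-likelihood test). The members' median log2 fold change was 0.95, beside 0.01 over all genes. The 5 tested sodium channel alpha genes (*Scn1a*, *Scn2a*, *Scn3a*, *Scn8a*, *Scn9a*), the sodium channel beta genes *Scn2b* and *Scn3b*, the 5 tested high-voltage calcium alpha genes, *Cacna1g*, the 3 tested alpha2delta genes and the 3 tested calcium beta genes were all among them. The gamma subunits were split, with *Cacng2* higher (0.80 ± 0.10), *Cacng7* not called (0.31 ± 0.17) and *Cacng4* lower (−0.43 ± 0.12). *Cacng4* was the only member lower in neurons than in that mean, beside 27.1% of all genes. The mean holds the precursors, at 555 to 959% of the neuronal *Cacng4* level. Astrocytes (78.0 to 97.5%) and oligodendrocytes (28.8 to 81.7%) were below neurons in every library, and microglia (59.2 to 142%) and endothelial cells (30.8 to 130%) on both sides. The call on *Cacng4* was lost without the second DOCA-salt library.

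*Cacna1b*, the pore of the N-type channel that drives transmitter release, had the largest difference. Its neuronal level was 253, 171, 173 and 206 CPM, above the 22.7 to 127 CPM of the other 5 classes in any library (1.31 ± 0.10). *Cacna1e*, the R-type pore, was at 344, 217, 252 and 288 CPM in neurons (1.29 ± 0.09). The lowest of these neuronal values lay below the 240 CPM of the precursors of the first DOCA-salt library, so the ranges met at that point.

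Among the sodium channels, *Scn9a* (Nav1.7, a channel that amplifies small depolarizations and is best known from sensory neurons) was at 148, 80.3, 119 and 182 CPM in neurons (1.22 ± 0.11). Its level varied more than 2-fold between neurons of different libraries, with the second DOCA-salt library lowest. *Scn1a* (Nav1.1, the channel of fast-spiking inhibitory neurons) was at 187, 191, 252 and 180 CPM (1.21 ± 0.09) and *Scn2a* (Nav1.2, found at the start of the axon) at 505, 444, 530 and 546 CPM (1.15 ± 0.08). For these 2 genes every neuronal value was above every value of the other 5 classes. *Cacna1g*, a T-type pore that lets neurons fire in bursts, stood at 47.8, 55.6, 64.8 and 57.7 CPM in neurons (1.16 ± 0.15), a narrow range over the libraries.

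**Figure D1:**
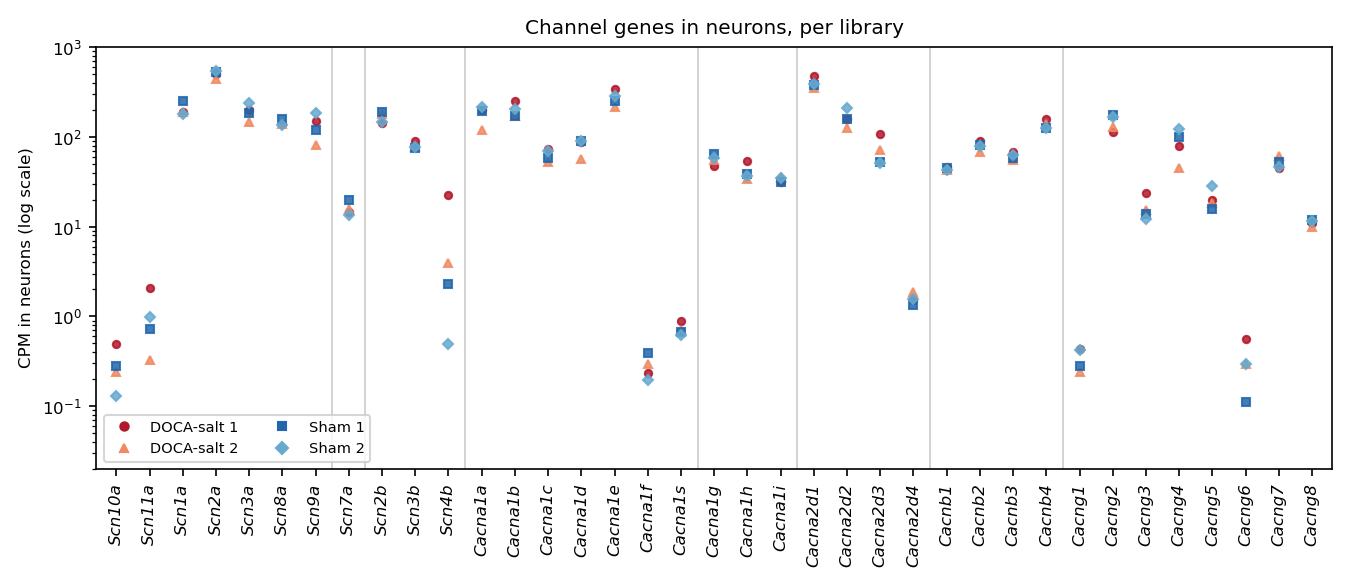
Level of the channel genes in neurons, in CPM on a log axis, with 1 point per library (circles DOCA-salt 1, triangles DOCA-salt 2, squares Sham 1, diamonds Sham 2) and grey lines between subunit types. The 4 libraries of *Scn2a* lie close together at 444 to 546 CPM, whereas *Scn4b* spreads from 0.493 to 22.3 CPM.

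The 16 members that did not have enough UMIs in the small classes to be tested were described in neurons. *Scn10a*, a channel of peripheral pain neurons, *Cacna1f* and *Cacna1s*, pores of retina and skeletal muscle, and *Cacng1* and *Cacng6*, gamma subunits known from muscle, stayed below 1 CPM in the neurons of all 4 libraries (0.112 to 0.896 CPM). *Scn11a*, another sensory neuron channel, reached 2.09, 0.329, 0.727 and 0.987 CPM. *Cacna2d4*, the alpha2delta subunit of photoreceptors, was at 1.53, 1.88, 1.34 and 1.55 CPM in neurons and at 9.23, 5.73, 15.5 and 6.90 CPM in oligodendrocytes. The oligodendrocyte values are above the neuronal ones in each library but rest on 2, 5, 4 and 6 UMIs and were not tested. The T-type pores *Cacna1h* and *Cacna1i*, the beta subunit *Cacnb1* and the TARP *Cacng8* were at 34.2 to 53.3, 31.3 to 36.1, 42.5 to 45.7 and 9.85 to 11.8 CPM in neurons over the 4 libraries.

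Genes that work with these channels followed the same split. Of the 27 partner genes (anchoring proteins, channel-binding FGFs, calmodulins, ubiquitin ligases, release-site proteins and the sodium leak channel complex) 17 were tested, and 15 were higher in neurons (edgeR quasi-likelihood test), with 0 lower also at an unadjusted p under 0.05. *Sptbn4*, the beta-IV spectrin that holds sodium channels at the axon initial segment, differed most (1.23 ± 0.13; 114, 108, 100 and 83.2 CPM in neurons). *Unc79* (1.02 ± 0.15) and *Unc80* (0.90 ± 0.07), auxiliary proteins of the sodium leak channel, and *Rims1* (0.81 ± 0.12), which tethers calcium channels at release sites, came next.

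**Figure D2:**
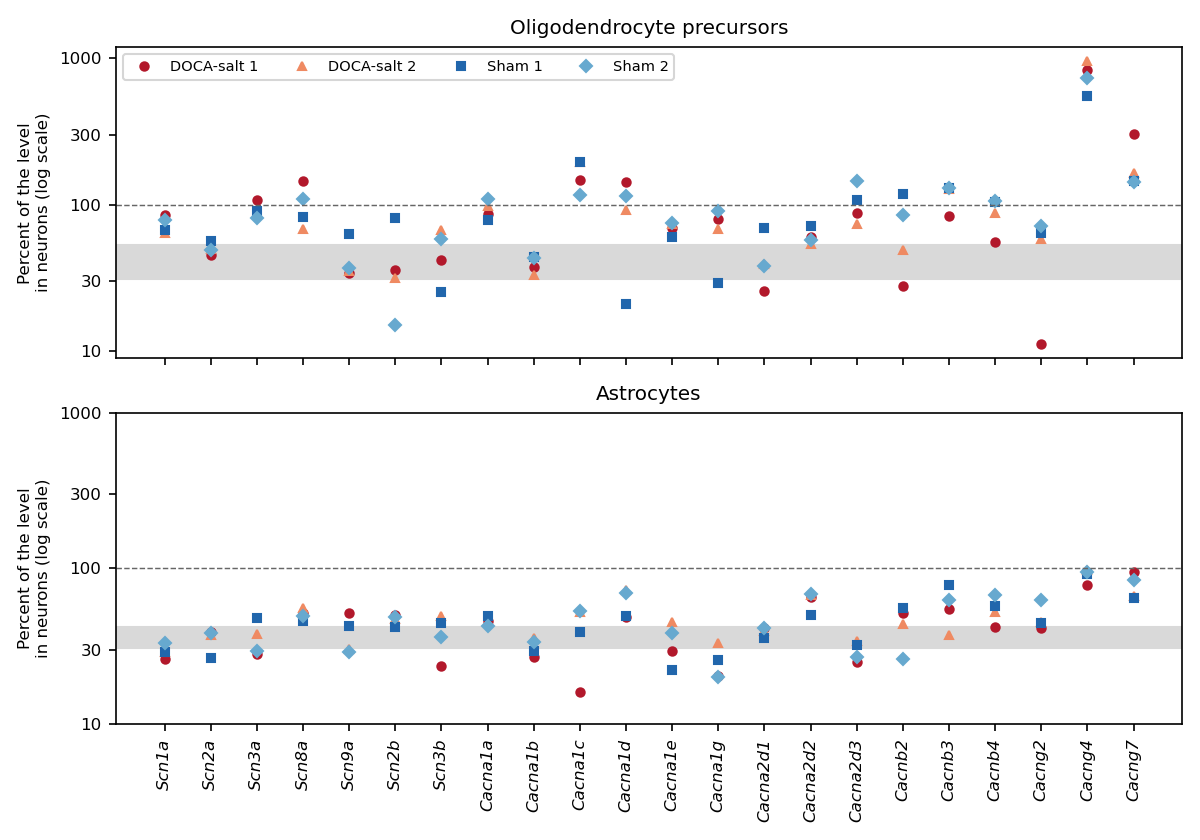
Level of tested channel genes in oligodendrocyte precursors (upper) and astrocytes (lower) as a percentage of their level in neurons of the same library, 1 point per library on a log axis, with a dashed line at the neuronal level and a grey band for the range of the neuronal marker list. *Cacng4* lies at 555 to 959% in precursors, above the dashed line in all 4 libraries.

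Oligodendrocyte precursors stood apart from the other glia. These cells divide in the adult brain, give rise to myelinating oligodendrocytes and are known for receiving synapses from neurons. In the precursors 10 of the 23 tested members were higher than in the mean of the other 5 classes and 2 were lower, beside 10.9% and 8.03% of the 7024 genes (edgeR quasi-likelihood test), with a median of 0.65 for the members and −0.04 for all genes. The class is small, with 115, 164, 11 and 60 nuclei. In it 13 of the 23 genes were above the share of the neuronal marker list in all 4 libraries. This was not particular to precursors, since astrocytes had 11 such genes, oligodendrocytes and microglia 4 each and endothelial cells 0.

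*Cacng4*, the TARP gamma-4, had the largest class difference of the whole family. It was at 669, 430, 545 and 897 CPM in precursors (106, 91, 29 and 121 UMIs), at 80.0, 44.8, 98.2 and 122 CPM in neurons and at 23.1, 36.6, 38.6 and 78.2 CPM in mature oligodendrocytes. Every precursor value lay above every value of the other 5 classes, and the log2 fold change was 3.20 ± 0.14 (adjusted p = 2.84e-27, edgeR quasi-likelihood test). Shares of nuclei were also counted after thinning to 1000 UMIs, which left out nuclei with fewer. Of the thinned precursors 44.3, 33.0, 40 and 52.7% held a *Cacng4* UMI (56.5, 39.6, 81.8 and 76.7% of all precursors before thinning). Of the thinned oligodendrocytes 1.32, 4.86, 4.08 and 6.57% held 1 (2.55, 4.60, 16.3 and 13.7% of all before). The shares before and after thinning thus come from different sets of nuclei. The gene lies on chromosome 11 at 107732357 to 107794557 (mm10), beside *Cacng5* and *Cacng1*.

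*Cacng7*, another TARP, was at 139, 99.2, 75.2 and 66.7 CPM in precursors and at 45.3, 60.6, 52.1 and 46.3 CPM in neurons (1.54 ± 0.28 against the mean of the other classes). *Cacna1c*, the L-type pore Cav1.2, was at 107, 104, 113 and 81.5 CPM in precursors and at 72.8, 52.9, 57.6 and 69.5 CPM in neurons (1.42 ± 0.28). For both genes, as for *Cacng4*, the precursors exceeded the neurons in each library without overlap. They rest on few molecules, 4 to 22 UMIs per library for *Cacng7* and 6 to 22 for *Cacna1c*.

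The other called genes of precursors were at or below their level in neurons in at least 1 library. *Cacna2d3*, an alpha2delta subunit, was at 94.7, 52.0, 56.4 and 74.1 CPM in precursors and at 108, 70.7, 52.1 and 51.2 CPM in neurons (1.13 ± 0.29), a call lost without the first DOCA-salt library. *Scn8a*, the Nav1.6 channel of nodes and axon initial segments, was at 202, 94.5, 132 and 148 CPM against 140, 138, 159 and 136 CPM (1.05 ± 0.21). The P/Q-type pore *Cacna1a* was at 170, 118, 150 and 237 CPM against 199, 120, 192 and 217 CPM (0.90 ± 0.17). Precursor and neuronal ranges overlap for all 3 genes. The remaining 4 called genes, *Scn3a*, *Cacna1e*, *Scn1a* and *Cacna1d*, had log2 fold changes of 0.73 to 0.87, and *Cacna1d* lost its call in 5 of 10 alternatives. *Cacna2d1* (−0.56 ± 0.18) and *Scn2b* (−0.71 ± 0.26) were lower. The call on *Cacna2d1* was lost in 3 of 10 alternatives, without either DOCA-salt library or the second Sham library, and that on *Scn2b* in 6, these 3 and DESeq2 among them. Among the 17 tested partners *Nalcn*, the sodium leak channel, and its auxiliary genes *Unc79* and *Unc80* were higher in precursors (0.88 ± 0.18, 0.97 ± 0.31 and 0.57 ± 0.13) and 3 others were lower.

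In mature oligodendrocytes 1 of the 23 members was higher and 8 were lower, beside 15.1% and 13.7% of all genes (edgeR quasi-likelihood test). The gene that was higher is *Cacnb4*, a calcium channel beta subunit, at 143, 151, 139 and 128 CPM in oligodendrocytes and 159, 139, 126 and 126 CPM in neurons (0.76 ± 0.12). The ranges in the 2 classes overlap, and *Cacnb4* in oligodendrocytes was at 90.1 to 110% of its neuronal level where the neuronal markers were at 30.9 to 46.7%. *Cacna1d*, an L-type pore that opens near rest, and *Cacng4* fell furthest below the other classes (−1.08 ± 0.22 and −1.05 ± 0.18). Of the partners, *Nfasc*, the neurofascin that oligodendrocytes use to build the paranode, was at 964, 672, 718 and 468 CPM in oligodendrocytes against 186, 144, 161 and 214 CPM in neurons (2.70 ± 0.12). *Ank3*, the ankyrin-G gene, was at 1015, 702, 1016 and 771 CPM against 582, 413, 601 and 616 CPM (1.57 ± 0.09). Both were higher in oligodendrocytes than in neurons in every library.

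Astrocytes held 1 higher and 8 lower members, beside 14.7% and 10.7% of all genes. Among the lower ones *Scn3a* and *Scn1a* kept the call in all 10 alternatives. The call on *Cacnb4* was lost in all 10, that on *Cacna2d3* in 7 and that on *Cacna1b* in 6, and *Scn2a*, *Cacna1c* and *Cacna1g* lost theirs in 2 each. *Cacna2d2*, an alpha2delta subunit, was the higher one (0.40 ± 0.14), at 103, 84.0, 78.5 and 143 CPM, and these values were below those of neurons in the same library (158, 124, 157 and 208 CPM). The call was kept in 5 of 10 alternatives. In microglia edgeR's quasi-likelihood test called 1 member higher and 2 lower, beside 9.05% and 5.92% of all genes, and the lower ones were *Cacna1e* (−1.05 ± 0.27) and *Cacna1a* (−0.93 ± 0.28). The call on *Cacna1a* was lost in 4 of 10 alternatives, among them DESeq2 and leaving out either Sham library, and that on *Cacna1e* in 1. In endothelial cells edgeR called 0 members higher and 6 lower, beside 13.3% and 8.07% of all genes. At an unadjusted p under 0.05 0 were higher too, and DESeq2 called 0 higher and 5 lower. *Cachd1*, an alpha2delta-like partner, was higher in astrocytes (0.98 ± 0.24; 39.0, 31.1, 67.3 and 62.2 CPM against 25.8, 22.6, 25.9 and 30.8 CPM in neurons).

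*Scn7a* encodes Nax, a sodium channel relative that does not open with voltage and is known as a sensor of extracellular sodium in glia of the circumventricular organs. In neurons it was at 14.4, 15.7, 19.9 and 13.6 CPM, with no library standing apart. The tanycytes that line the third ventricle beside the ARC passed the gate in small numbers, 53, 0, 2 and 23, and were not tested. Among them *Scn7a* had 92 UMIs in the first DOCA-salt library (443 CPM, in 10 of 53 nuclei), none in the 2 nuclei of the first Sham library and 1 UMI in the second (7.39 CPM).

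That gap between the libraries depended on the upper limits on depth. Nuclei with a UMI of *Rax*, the tanycyte transcription factor, and few neuronal UMIs gave 304, 0, 19.4 and 12.9 CPM under the limits. Without the limits on genes and UMIs they gave 261, 0, 691 and 66.9 CPM, from 107, 14, 8 and 62 nuclei. The molecules sat in few nuclei of either group: 6, 0, 2 and 3 nuclei had 5 or more *Scn7a* UMIs, a single nucleus held up to 75 UMIs in the first DOCA-salt library and up to 82 in the first Sham library, and the nuclei with 5 or more UMIs carried 90.1, 99.4 and 80.4% of the UMIs in the 3 libraries that had any. Under the limits 5, 0, 0 and 0 nuclei had 5 or more *Scn7a* UMIs, so all such nuclei of the Sham libraries lay beyond a limit. *Scn7a* was thus high in a few nuclei of the *Rax* set in the first DOCA-salt library. In the Sham libraries it was high only in nuclei beyond the limits, and whether these are doublets was not tested. The second DOCA-salt library had 0 UMIs in 14 such nuclei, which allows up to 3 UMIs by counting error.

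Neurons differed among themselves as well. The transmitter comparison set GABAergic neurons (3044, 6822, 862 and 2501 nuclei) beside glutamatergic neurons (643, 749, 56 and 339 nuclei) in the same libraries. Of the 32 members tested 4 were higher and 7 lower in GABAergic neurons, beside 4.77% and 5.50% of 13518 genes (edgeR quasi-likelihood test). The alpha2delta family was split between the transmitters, with *Cacna2d1* on the glutamatergic side and *Cacna2d2* on the GABAergic side. *Cacna2d1* and *Cacna2d2* encode the binding sites of gabapentin and pregabalin.

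*Cacna2d1* was at 924, 833, 672 and 872 CPM in glutamatergic and at 278, 193, 223 and 215 CPM in GABAergic neurons. The glutamatergic values were all above the GABAergic ones, with a log2 fold change of −1.88 ± 0.10 (adjusted p = 2.22e-06, edgeR quasi-likelihood test). Among neurons with 1000 or more UMIs, each thinned to 1000, 55.7, 50.5, 41.1 and 53.6% of glutamatergic ones held a *Cacna2d1* UMI (89.0, 84.9, 94.6 and 87.9% of all before thinning). For GABAergic neurons the thinned share was 21.7, 14.1, 17.9 and 16.9% (54.0, 40.4, 75.2 and 52.1% of all before). In oligodendrocytes the thinned share was 13.2, 12.8, 8.16 and 11.4%, below that of GABAergic neurons in each library but close to it in the second DOCA-salt library.

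*Cacna2d2* was at 185, 144, 176 and 246 CPM in GABAergic and at 86.6, 69.8, 131 and 109 CPM in glutamatergic neurons (0.97 ± 0.10), again without overlap. *Scn9a* was at 156, 79.8, 126 and 213 CPM against 104, 64.4, 82.0 and 102 CPM (0.63 ± 0.11), higher in GABAergic neurons within each library although the ranges cross. *Cacna2d1*, *Cacna2d2* and *Scn9a* were called in all 12 alternatives fitted.

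The T-type pore *Cacna1h* was at 53.6, 27.4, 35.1 and 32.3 CPM in GABAergic and at 56.1, 54.0, 49.2 and 56.2 CPM in glutamatergic neurons (−0.61 ± 0.14), nearly level in the first DOCA-salt library and lower in the other 3. The TARP gene *Cacng5* was at 21.6, 21.0, 17.3 and 31.2 CPM against 11.4, 7.25, 19.7 and 17.8 CPM (0.91 ± 0.20), with the first Sham library in the opposite direction. Smaller differences were called for other members: *Scn3b* was higher by 0.46 and *Scn8a*, *Scn2a* and *Cacna1e* were lower in GABAergic neurons, between −0.39 and −0.27. The calls on *Cacna1h*, *Scn8a* and *Cacna1e* were lost in 4 of 12 alternatives each, among them leaving out the second DOCA-salt library or either Sham library. Those on *Cacng5* and *Scn3b* were lost without the second library of either group, and that on *Scn2a* in 2 alternatives, among them leaving out the second Sham library. Of the 24 tested partners *Rrad* (−0.65 ± 0.18), a small GTPase that restrains calcium channels, and *Calm3* (−0.28 ± 0.07), a calmodulin gene, were lower, 0 were called higher and 1 was higher at an unadjusted p under 0.05.

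**Figure D3:**
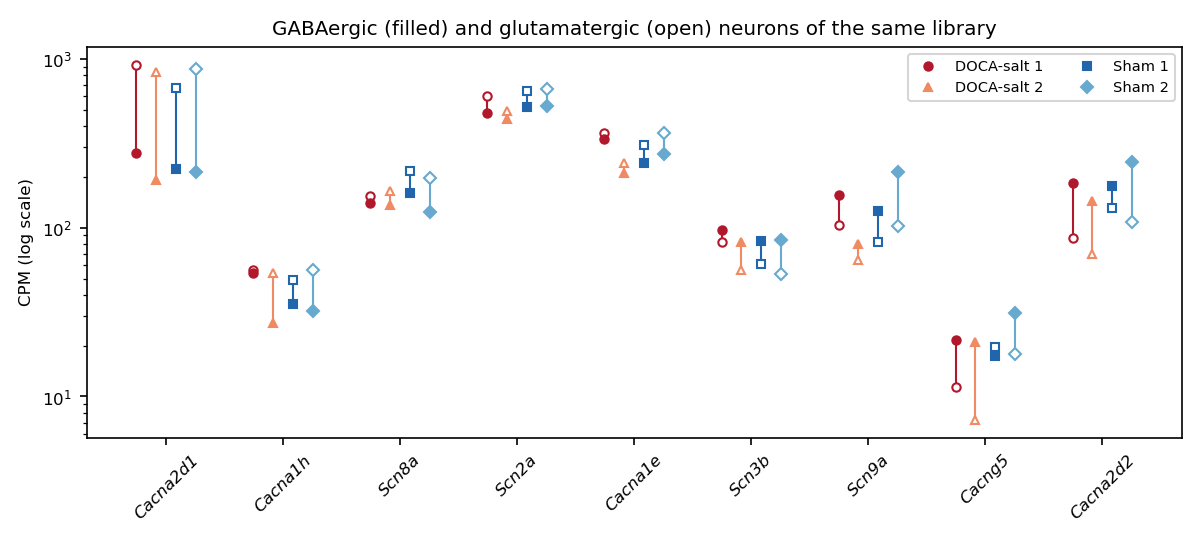
Level in CPM (log axis) of called channel genes in GABAergic (filled) and glutamatergic (open) neurons, with a line joining the values of a library. For *Cacna2d1* the open symbols lie at 672 to 924 CPM, far above the filled ones, and for *Cacna2d2* they lie below them.

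The start regions of 3 of the genes that separate neuronal subsets, *Cacna2d1*, *Scn9a* and *Cacng5*, are shown for what their letters hold. Each is the 250 bases before the RefSeq start (build GRCm38.p6), 5′ to 3′ on the strand of the gene, with capitals for GGGCGG, the letters of the GC box, or CCGCCC, the same letters on the other strand.
Cacna2d1, chr5:15934441-15934690, plus strand: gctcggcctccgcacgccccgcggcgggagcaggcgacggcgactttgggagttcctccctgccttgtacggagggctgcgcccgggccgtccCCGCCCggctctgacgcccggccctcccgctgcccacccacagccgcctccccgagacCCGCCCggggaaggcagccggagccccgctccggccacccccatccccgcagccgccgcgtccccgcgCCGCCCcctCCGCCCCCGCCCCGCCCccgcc
Scn9a, chr2:66634963-66635212, minus strand: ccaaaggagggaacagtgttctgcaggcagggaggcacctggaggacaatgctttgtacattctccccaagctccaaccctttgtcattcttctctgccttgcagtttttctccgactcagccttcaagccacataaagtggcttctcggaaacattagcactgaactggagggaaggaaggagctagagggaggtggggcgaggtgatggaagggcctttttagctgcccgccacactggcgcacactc
Cacng5, chr11:107915056-107915305, minus strand: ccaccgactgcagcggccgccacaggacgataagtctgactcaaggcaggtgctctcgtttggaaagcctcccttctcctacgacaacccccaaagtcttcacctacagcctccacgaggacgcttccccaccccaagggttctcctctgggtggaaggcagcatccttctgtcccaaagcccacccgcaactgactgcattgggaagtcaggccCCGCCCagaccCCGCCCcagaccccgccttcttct
The window of *Cacna2d1* is 82.4% G or C and holds 6 matches, some of them overlapping. The window of *Scn9a* is 54.4% G or C with no match, and that of *Cacng5* is 62.0% with 2. GGGCGG on either strand occurs in 32.7% of all 32851 RefSeq start windows of this length and in 15 of 40 windows of members (37.5%), which cover 29 of the 39 genes. TATAAA occurs in 12.4% of all windows and in 5.00% of those of members, and CAGCTG, an E-box, in 13.0% and 27.5%. A match is a match of letters only, and these shares were not tested.

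Peptide and regional groups of neurons were next compared with the remaining neurons of the same libraries. *Pomc* neurons (171, 15, 22 and 169 nuclei) had 5 members higher and 12 lower of 33 tested, beside 3.34% and 4.42% of 13927 genes (edgeR quasi-likelihood test). DESeq2 called fewer, 2 higher and 4 lower. The sodium channel beta genes *Scn2b*, *Scn3b* and *Scn4b* and 4 sodium channel alpha genes (*Scn1a*, *Scn2a*, *Scn3a*, *Scn8a*) were among the lower ones, while *Scn9a* and *Scn7a* were higher. Of 12 alternatives *Scn3a* and *Scn8a* lost the call in 3, *Scn1a* in 2 and *Scn2a* in 1, those of *Scn3a* and *Scn8a* being DESeq2 and leaving out the first DOCA-salt or the second Sham library. The 15 nuclei of the second DOCA-salt library make its values coarse.

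*Cacng5*, a TARP, had the largest positive difference in *Pomc* neurons, at 71.2, 85.4, 53.2 and 54.9 CPM against 18.0, 18.1, 15.3 and 27.0 CPM in the remaining neurons. The groups did not overlap (1.55 ± 0.16; adjusted p = 3.57e-19, edgeR quasi-likelihood test). *Scn9a* was at 284, 128, 225 and 288 CPM against 144, 80.2, 117 and 177 CPM (0.84 ± 0.09), higher within every library. *Scn3b*, a beta subunit that speeds recovery of sodium channels, was at 40.1, 21.3, 53.2 and 54.0 CPM against 92.2, 77.1, 75.3 and 77.4 CPM (−0.81 ± 0.14). All its *Pomc* values were below all others. *Scn9a*, *Cacng5*, *Scn3b* and *Scn2b* were called in all 12 alternatives.

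*Cacng3*, also a TARP, was at 4.01, 0, 16.4 and 4.84 CPM in *Pomc* neurons against 24.4, 15.4, 13.8 and 12.4 CPM (−1.64 ± 0.35), with the first Sham library the other way and the call lost with DESeq2 and without the first DOCA-salt library. *Scn7a* was at 25.1, 10.7, 57.3 and 20.2 CPM against 14.0, 15.7, 19.3 and 13.3 CPM (0.84 ± 0.23), with the second DOCA-salt library the other way. The *Scn7a* call was lost in 4 of 12 alternatives, without the first library of either group, with DESeq2 and under a gate by number of distinct markers alone. *Scn4b*, a beta subunit linked to resurgent sodium current, was at 8.02, 0, 0 and 0 CPM against 22.8, 3.97, 2.32 and 0.514 CPM (−1.60 ± 0.51). When the striatal-type and MCH neurons were left out of both sides, that *Scn4b* value turned to 0.45 with an adjusted p of 0.794 (edgeR quasi-likelihood test). Among 25 partners *Gem* (1.27 ± 0.40) and *Rrad* (0.78 ± 0.23), GTPases that restrain calcium channels, were higher and *Cachd1* (−0.84 ± 0.23) was lower.

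*Agrp* neurons could be compared in 2 libraries, DOCA-salt 1 with 179 nuclei and Sham 2 with 33, and values are given in that order. Of 34 members tested 4 were higher and 10 lower, beside 2.70% and 4.52% of 14792 genes (edgeR quasi-likelihood test). The T-type pore *Cacna1g* was lowest, at 12.3 and 10.7 CPM against 48.7 and 57.9 CPM (−2.13 ± 0.36, n = 2 libraries). *Cacna2d1* was at 193 and 139 CPM against 477 and 392 CPM (−1.40 ± 0.14). *Cacng5* was higher, as in *Pomc* neurons, at 53.3 and 42.9 CPM against 18.9 and 28.0 CPM (1.22 ± 0.28). None of these 3 genes overlapped between *Agrp* and remaining neurons.

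*Cacna2d3* was at 38.3 and 26.8 CPM in *Agrp* neurons against 110 and 51.3 CPM (−1.48 ± 0.24). *Cacng3* was at 8.21 and 5.36 CPM against 24.1 and 12.1 CPM (−1.54 ± 0.50), a call lost without the striatal-type and MCH neurons (−1.07, adjusted p = 0.297, edgeR quasi-likelihood test). *Scn4b* was at 5.47 and 0 CPM against 22.7 and 0.496 CPM (−2.09 ± 0.64) and turned to 0.30 (adjusted p = 0.959) when those neurons were left out. Further calls were higher *Cacna1d*, *Scn9a* and *Cacna1a* (0.42 to 0.68) and lower *Scn1a*, *Scn8a* and *Scn2b* (−1.10 to −0.82). With DESeq2 3 of the 14 calls in *Agrp* neurons remained, *Scn1a*, *Cacna2d1* and *Cacna1g*. Of 25 partners 0 were called higher (2 at an unadjusted p under 0.05) and 4 lower, led by *Cabp1*, a calmodulin-like regulator of L-type channels (−1.996 ± 0.47), and *Fgf12*, a sodium channel-binding FGF (−0.95 ± 0.23).

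Neurons with 2 or more UMIs over *Nr5a1* and *Fezf1*, transcription factor genes of the neighbouring ventromedial nucleus, numbered 267, 889, 168 and 330. This gate takes deeper nuclei. Their median was 6603, 6778, 15238.5 and 10274.5 UMIs, beside 3349, 3190, 9264.5 and 4504 in all neurons. Without the upper limits on genes and UMIs the first Sham library had 455 such neurons. The part of depth in the differences below was not tested. They had 9 members higher and 4 lower of 34 tested, beside 6.29% and 4.94% of 14422 genes (edgeR quasi-likelihood test). *Cacna2d1* was at 790, 693, 615 and 876 CPM against 445, 294, 342 and 321 CPM (1.12 ± 0.09), above the remaining neurons in every library without overlap. *Cacna1h* was at 59.0, 52.1, 58.6 and 56.5 CPM against 52.9, 31.3, 34.9 and 33.8 CPM (0.63 ± 0.09), nearly level in the first DOCA-salt library.

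*Scn9a* was lower in ventromedial neurons, at 102, 61.1, 96.2 and 87.5 CPM against 152, 83.4, 122 and 195 CPM (−0.62 ± 0.10). *Cacna2d2* was at 102, 89.8, 122 and 120 CPM against 162, 129, 163 and 220 CPM (−0.60 ± 0.07), and *Scn3b* at 59.4, 59.6, 59.4 and 46.2 CPM against 93.0, 79.9, 77.5 and 80.8 CPM (−0.53 ± 0.07). For *Cacna2d2* and *Scn3b* the groups did not overlap. *Cacna1g* (−0.35) was lower, and *Scn8a* (0.35), *Cacna1c* and *Cacna1e* (0.25 each) and *Scn2a* (0.18) were higher. Of 12 alternatives the call on *Scn2a* was lost in 6, leaving out any 1 library among them, that on *Cacna1c* in 5, leaving out any 1 library but the first DOCA-salt library among them, and those on *Cacna1e* and *Cacna1g* in 2 each, while *Scn8a* was called in all 12. Among 25 partners 5 were higher and *Fgf13* (−0.38 ± 0.07), which binds the tail of sodium channels, was lower. Among the 5 were *Nedd4l* (0.27 ± 0.08), a ubiquitin ligase, and *Calm3* (0.25 ± 0.06). The 3 groups share nuclei with the transmitter groups, so these contrasts are not independent of the GABAergic to glutamatergic one.

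**Figure D4:**
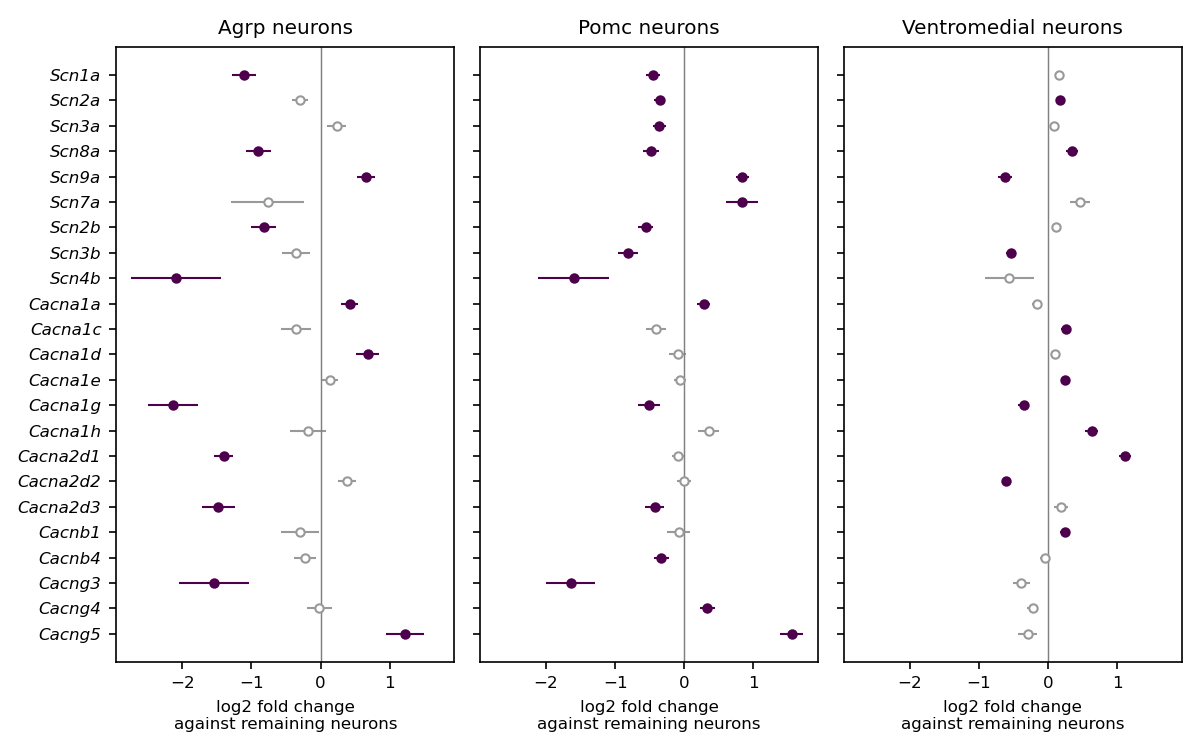
Log2 fold change ± SE in *Agrp*, *Pomc* and ventromedial neurons against the remaining neurons of the same libraries, for channel genes called in at least 1 of them (filled where called, open where not). *Cacna2d1* lies at −1.40 in *Agrp* and at 1.12 in ventromedial neurons, and *Cacng5* at 1.22 in *Agrp* and 1.55 in *Pomc* neurons.

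The comparison of DOCA-salt with Sham is what the libraries were made for. In neurons 36 of the 39 members were tested and none was called, beside 0% of the 16059 genes in either direction (1337 genes had an unadjusted p under 0.05, and DESeq2 called 105). At an unadjusted p under 0.05 2 members were higher and 2 lower, DESeq2 called 0 members, and the lowest adjusted p of a member was 0.596 (edgeR quasi-likelihood test). The median member change was −0.02, beside 0.03 over all genes. With 2 libraries against 2 an exact permutation test cannot go below p = 0.333, so single genes rest on the fit across all genes.

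*Cacna2d3* had the lowest unadjusted p in neurons, at 108, 70.7, 52.1 and 51.2 CPM (0.76 ± 0.21, DOCA-salt over Sham). Both DOCA-salt values were above both Sham values, which is part of why the gene is named, and the first DOCA-salt library was highest. In that library 1065 of the 3267 neuronal *Cacna2d3* UMIs were in striatal-type neurons. Outside these neurons the levels were 83.2, 70.7, 52.1 and 51.1 CPM. With MCH neurons left out as well the change was 0.54 ± 0.14 (adjusted p = 0.554, edgeR quasi-likelihood test).

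*Scn4b* was at 22.3, 3.97, 2.29 and 0.493 CPM (672, 217, 41 and 15 UMIs), a log2 fold change of 3.24 ± 1.00. Each DOCA-salt value was above the Sham values, by a small distance in the second library. Of the 672 UMIs of the first DOCA-salt library 558 were in its striatal-type neurons, where *Scn4b* stood at 152 CPM. Outside these neurons the levels were 4.31, 3.97, 2.29 and 0.494 CPM. The change without striatal-type and MCH neurons was 1.59 ± 0.66 (adjusted p = 0.567, edgeR quasi-likelihood test). Striatal-type neurons numbered 715, 19, 0 and 3 by library. The 19 of the second DOCA-salt library and the 3 of the second Sham library held 0 *Scn4b* UMIs. The high level in striatal-type neurons thus rests on the first DOCA-salt library alone. The part of the neuron mix in the *Scn4b* difference was not tested.

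The TARP genes *Cacng4* and *Cacng2* were lower. *Cacng4* was at 80.0, 44.8, 98.2 and 122 CPM in neurons (−0.86 ± 0.27) and *Cacng2*, the gene of stargazin, at 114, 130, 177 and 166 CPM (−0.52 ± 0.17). For both the DOCA-salt values lay below the Sham values, and the adjusted p was 0.596 for both (edgeR quasi-likelihood test). In neurons too, groups that stood apart were part of why genes were named, so the separation is not a result. With DESeq2 these 2 genes were not called either, whereas with no filter of low counts edgeR's quasi-likelihood test called *Cacng4* (−0.86, adjusted p = 0.0189) along with *Cacna2d3* (0.76, adjusted p = 0.036) and *Scn4b* (3.23, adjusted p = 8.22e-06).

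**Figure D5:**
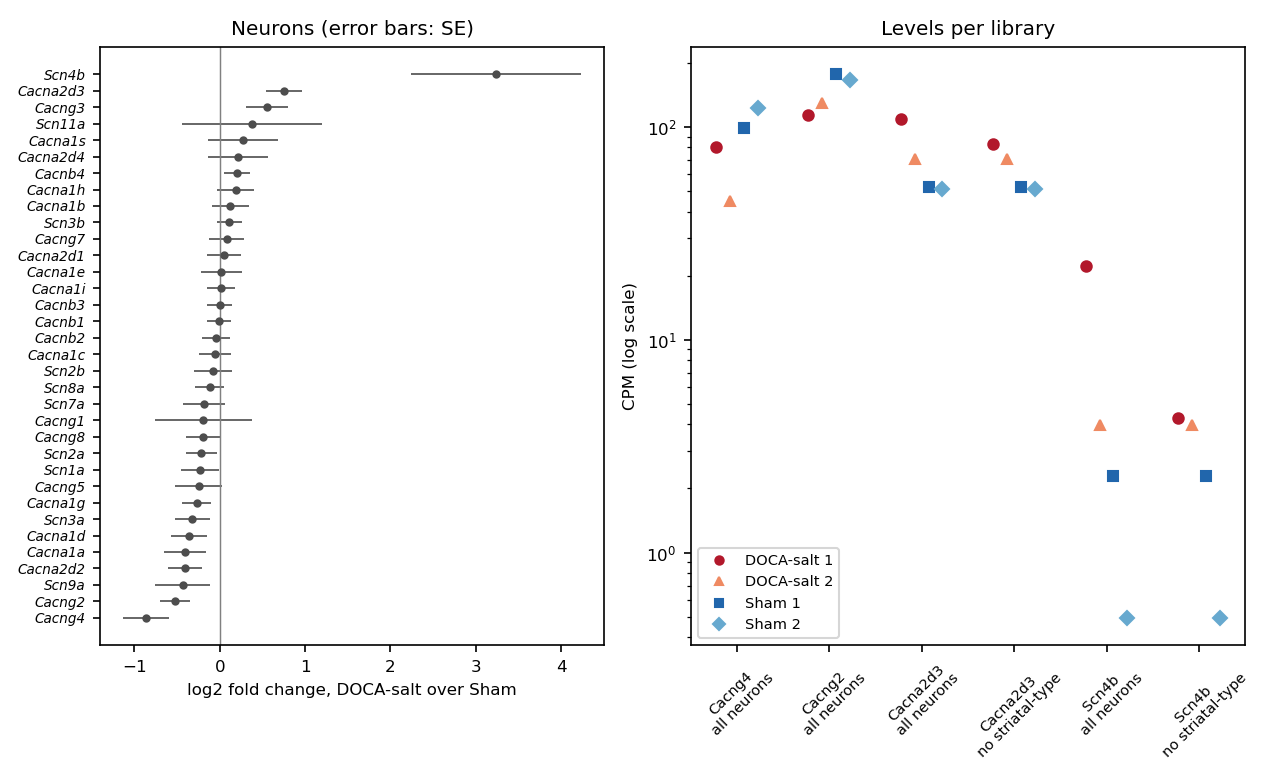
Log2 fold change ± SE of DOCA-salt over Sham in neurons for tested channel genes in order of size (left), and CPM per library on a log axis for 4 of them, with and without striatal-type neurons for *Cacna2d3* and *Scn4b* (right). *Scn4b* lies furthest from 0 at 3.24, and its level in DOCA-salt 1 drops from 22.3 to 4.31 CPM without striatal-type neurons.

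No member was called in the other classes either. Of 23 members tested in astrocytes, 25 in oligodendrocytes, 18 in precursors, 5 in microglia and 6 in endothelial cells, 0 were called by edgeR's quasi-likelihood test and 0 by DESeq2. At an unadjusted p under 0.05 edgeR had 0 higher in each class and 2, 2, 1, 1 and 0 lower. The shares of all genes called were 0.0121% higher and 0.0605% lower in astrocytes, 0% and 0.0351% in oligodendrocytes, 0% and 0.0255% in precursors, 0% and 0.139% in microglia and 0% and 0.0985% in endothelial cells. Of the members whose DOCA-salt and Sham values stood apart, the 2 of lowest p in astrocytes were *Cacng4* at 62.4, 43.7, 89.7 and 115 CPM (−1.03 ± 0.33) and *Cacng2* at 46.8, 58.7, 78.5 and 104 CPM (−0.82 ± 0.33). In oligodendrocytes they were *Cacng4* at 23.1, 36.6, 38.6 and 78.2 CPM (−1.03 ± 0.39) and *Scn9a* at 27.7, 26.3, 38.6 and 50.6 CPM (−0.86 ± 0.39). All 4 were lower in DOCA-salt. They were picked for groups that did not overlap and for their low p, so the separation is not a result. Without the first DOCA-salt library the *Cacng4* change in astrocytes was −1.28. The *Cacng4* and *Cacng2* differences thus stood in the same direction in neurons and astrocytes of the same libraries. The neuronal marker list moved the same way: in astrocytes it was at 30.6, 34.3, 41.9 and 35.5% of its neuronal level and in oligodendrocytes at 30.9, 41.0, 46.7 and 42.3%, both DOCA-salt values below both Sham values. The part of these transcripts in the astrocyte and oligodendrocyte values was not tested.

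In precursors *Cacng2* was at 12.6, 75.6, 113 and 119 CPM on 2, 16, 6 and 16 UMIs (−1.25 ± 0.57) and *Cacng7* at 139, 99.2, 75.2 and 66.7 CPM (0.78 ± 0.48). The neuronal marker list in precursors was at 30.9, 33.8, 53.1 and 38.6% of its neuronal level, lower in both DOCA-salt libraries like *Cacng2*. In microglia *Scn2a* was at 112, 223, 369 and 289 CPM (−0.90 ± 0.43), where the neuronal marker list was at 37.8, 45.5, 69.0 and 49.6%, again lower in both DOCA-salt libraries. The part of neuronal transcripts in these values was not tested. In endothelial cells *Cacna2d1* was at 210, 217, 98.2 and 159 CPM (0.76 ± 0.37) and *Cacng2* at 57.2, 53.0, 90.7 and 117 CPM (−0.91 ± 0.45). The neuronal marker list there was at 37.6, 46.0, 43.3 and 46.0% of its neuronal level and overlapped between the groups, and its part was not tested. The DOCA-salt and Sham values did not overlap for these 5 genes and classes, which were picked for that and for their low p, and their adjusted p lay between 0.578 and 0.921 (edgeR quasi-likelihood test).

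Within neuronal subsets none of 35 members in GABAergic, 31 in glutamatergic, 30 in *Pomc* and 32 in ventromedial neurons was called by edgeR's quasi-likelihood test or by DESeq2. At an unadjusted p under 0.05 edgeR had 2, 2, 0 and 1 higher and 2, 3, 1 and 2 lower. Of all genes 0% were called higher and 0% lower in GABAergic neurons, 0% and 0.00821% in glutamatergic, 0.0109% and 0.076% in *Pomc* and 0.00809% and 0.0162% in ventromedial neurons. In GABAergic neurons *Cacna2d3* was at 130, 78.0, 61.0 and 48.8 CPM (0.88 ± 0.26) and *Cacng2* at 108, 123, 182 and 168 CPM (−0.62 ± 0.19). Glutamatergic neurons had *Cacna2d2* at 86.6, 69.8, 131 and 109 CPM (−0.62 ± 0.21) and *Cacng5* at 11.4, 7.25, 19.7 and 17.8 CPM (−1.01 ± 0.38). These 4 genes were picked for groups that did not overlap and for their low p, so the separation is not a result.

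In *Pomc* neurons *Cacng4* was at 105, 32.0, 151 and 141 CPM (−0.68 ± 0.30), the second value on 3 UMIs, and *Cacna2d2* at 153, 96.0, 168 and 212 CPM (−0.51 ± 0.29). In ventromedial neurons *Scn4b* was at 5.81, 5.38, 1.62 and 0.264 CPM on 13, 41, 4 and 1 UMIs (2.67 ± 0.69, adjusted p = 0.386, edgeR quasi-likelihood test), with the DOCA-salt libraries close to each other. *Cacng4* was at 74.2, 43.5, 91.4 and 82.4 CPM there (−0.65 ± 0.25). These genes too were picked for DOCA-salt and Sham values that stood apart, and no adjusted p passed.

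The treatment change of glutamatergic neurons was set against that of GABAergic neurons for 32 members, and none differed at an adjusted p under 0.05, beside 0% of all genes in either direction. By edgeR's quasi-likelihood test 2 had a higher and 2 a lower difference at an unadjusted p under 0.05, and the lowest adjusted p of a member was 1.00, while DESeq2 called 0. In whole libraries, where fewer cells of a type and less RNA per cell cannot be told apart, 0 of 39 members were called, beside 0% of 17096 genes. edgeR's quasi-likelihood test had 2 higher and 2 lower at an unadjusted p under 0.05, and DESeq2 called 0. *Cacna2d3* was at 101, 65.1, 49.2 and 47.5 CPM (0.74 ± 0.21) and *Cacng2* at 106, 122, 179 and 157 CPM (−0.59 ± 0.18) in whole libraries. Both were again picked for groups that stood apart.

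*Scn7a* (−0.18 ± 0.25) and *Cacna2d1* (0.05 ± 0.20) differed between DOCA-salt and Sham neurons by less than their SE, *Cacna2d1* at 470, 349, 379 and 390 CPM, and the values of the groups overlap. Of the 25 partner genes tested in neurons edgeR's quasi-likelihood test called 0, with 2 higher and 0 lower at an unadjusted p under 0.05.

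These counts of 0 rest on libraries that differ within the DOCA-salt group. Without the first DOCA-salt library *Cacng4* (−1.29), *Cacna1a* (−0.76) and *Cacna1d* (−0.66) were lower in neurons. Without the second DOCA-salt library *Cacna2d3* (1.00) and *Scn4b* (4.07) were higher. They are named because edgeR called them in those fits, and the 2 fits of all neurons shared no called channel gene. This does not extend to the subsets. There *Scn4b* was higher by 2.66 in ventromedial neurons without the first DOCA-salt library and by 4.78 in GABAergic neurons without the second. Genes outside the family were called in the fits of all neurons as well, so such calls are not particular to channel genes. A lone library is taken there to vary like the Sham pair, and the 2 DOCA-salt libraries are those with 715 and 19 striatal-type, 1 and 383 MCH and 179 and 0 *Agrp* neurons.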

How the data were processed

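Nuclei of ARC punches were sequenced with a 10x 3′ v3 kit, and the authors made the deposited UMI counts with Cell Ranger 3.0.1 on mouse mm10. Whether intronic reads entered the counts is not given in the sources used here. There are 2 DOCA-salt and 2 Sham libraries of 45126915, 79437196, 53257230 and 59293582 UMIs (DOCA-salt 1, DOCA-salt 2, Sham 1, Sham 2), each a pool of 2 mice. For DOCA-salt against Sham, p-values measure the spread between these pools. Where classes or subsets were compared, the library is a block, and p-values are set against how differences vary from library to library. With few libraries this spread is estimated with the help of all genes tested. A small p-value therefore does not show that the gene itself varies little between libraries. Intervals cover counting error only. Channel genes and gene lists were chosen with earlier results of these data known.

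Barcodes with over 200 and under 7000 genes, under 25000 UMIs and under 15% mitochondrial UMIs were kept. A class needed 2 or more of its markers (neurons 3 or more), 0.1% of the UMIs of the nucleus in them (neurons 0.2%) and over 3 times the marker UMIs of every other non-neuronal list. A non-neuronal nucleus also needed more UMIs of its own markers than of the neuronal ones. The gate first planned used the number of markers alone; it was changed after most nuclei of the deep first Sham library were seen to pass several gates, and is kept as an alternative. The 5242 nuclei of mixed classes and 5304 of none were left out, which also takes out doublets between classes, and no doublet caller was run. GABAergic and glutamatergic neurons needed 2 or more UMIs of their transmitter genes and over 4 times those of the other. *Agrp* and *Pomc* neurons needed 5 or more UMIs of the peptide at 0.2% of the nucleus. These peptides can spread as free RNA between nuclei.

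UMIs were summed per class and library where every library had 10 or more nuclei. Tests were edgeR 4.0.16 quasi-likelihood tests (TMM, filterByExpr) in R 4.3.3 with Benjamini-Hochberg adjustment over all genes, with the library as a block where classes were compared. The test was checked on simulated data, in which it recovered 93% of 2-fold changes for DOCA-salt against Sham neurons (16009 genes) and 96% for GABAergic against glutamatergic neurons (13559 genes). The simulated libraries shared a common profile with a fixed spread, without the differences in cell mix between the real libraries. These shares therefore do not tell what part of real 2-fold changes the DOCA-salt comparison would find. Alternatives were DESeq2 1.42.0, RLE size factors, no filter of low counts, other gates and depth limits, leaving out a library, and a block on the replicate number. Named with values are the up to 6 called genes of largest change in a contrast (positive for classes), the up to 2 of lowest p whose DOCA-salt and Sham values stand apart, the up to 4 called partners, and *Scn7a*, *Scn4b* and *Cacna2d1*. Some genes of the counts are not reported here.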

Additional observations from a re-analysis of the deposited data

How the results depend on the processing

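The count of channel genes higher in neurons (21) stayed between 20 and 23 in the alternatives fitted and that of genes higher in a non-neuronal class (13) between 11 and 14. Between GABAergic and glutamatergic neurons the 11 calls became 7 under the gate by number of distinct markers alone, and 5 to 12 when a library was left out. The 44 calls in *Agrp*, *Pomc* and ventromedial neurons became 21 with DESeq2 and 17 to 41 without a library, where leaving out DOCA-salt 1 or Sham 2 took away the *Agrp* contrast. The *Scn4b* differences in *Agrp* and *Pomc* neurons reversed to 0.30 and 0.45 without striatal-type and MCH neurons. Over all 116 calls on channel genes between classes or subsets, 54 were kept in every alternative fitted, and of 1236 refits of single genes 1047 kept the call and 189 did not. These counts include *Agrp* refits without DOCA-salt 2 or without Sham 1. The reported *Agrp* fit used neither library, so these refits repeat it and could not lose a call.

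For DOCA-salt against Sham, genes called in neurons went from 0 to 105 with DESeq2, 226 with no filter of low counts, 1 under the gate by number of distinct markers alone, and 0 to 1038 without a library. Channel genes called went from 0 to 3 over the main classes (*Cacng4*, *Cacna2d3* and *Scn4b* in neurons) and to 1 in the subsets and 1 in the difference between glutamatergic and GABAergic neurons with no filter. Without a library they ranged from 0 to 5 over the classes, 0 to 22 in the subsets, 0 to 4 in whole libraries and 0 to 1 in the difference; the causes were not tested. For fits without a library, the number of all genes called is given above for all neurons only, not for the subsets. The counts of channel genes in those fits therefore do not show a response particular to the family. Such fits leave 1 library in a group, which is taken to vary like the pair of the other group. The replicate numbers were not stated to pair pools, and same-numbered pools deviated apart (correlation −0.313 in neurons). With the replicate number as a block 1 channel gene was called in the subsets, *Scn4b* in GABAergic neurons, and with crossed numbers 1, *Scn4b* in ventromedial neurons; the block changed no other count of channel genes. Depth limits the small classes, down to 11 precursors in Sham 1.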
